A study of Mus musculus with 58 samples.

Results

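A set of 9 genes of mouse chromosome 7, Bcam, Mark4, Eml2, Six5, Dmpk, Irf2bp1, Nova2, Grik5 and Gsk3a, were followed through 58 brains of mice that carry human APOE in place of mouse Apoe. They are 9 of the 15171 genes in the count table, and they were chosen from the genes around Apoe for the difference in their level between APOE4 and APOE3 mice in these same data. That difference is therefore a description: the fit over all genes also gives calls for it, and nothing is read from those calls, or from the signs, for the 9 genes. The comparisons tested were injury, the number of Abca1 copies, sex and the interactions of isoform with injury and with Abca1. Whether isoform differences within single strata entered the choice is not stated. The interactions with isoform, and the tests within single genotypes or strata, may therefore not be independent of it.

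RNA was sequenced from hippocampus and cortex at the injury site, taken 14 days after surgery from C57BL/6 mice of both sexes that were operated on at 3 months of age. Every mouse, controls included, was homozygous for a human APOE3 or APOE4 targeted replacement, and carried either both functional copies of Abca1 (E3/Abca1+/+ and E4/Abca1+/+) or a single one (E3/Abca1+/- and E4/Abca1+/-). Abca1 encodes the transporter that moves cholesterol and phospholipid onto APOE. Mice with traumatic brain injury (TBI) received a craniotomy and a controlled cortical impact, and sham mice the craniotomy alone. The 8 groups held 8 sham and 8 TBI E3/Abca1+/+ mice, 7 sham and 6 TBI E3/Abca1+/- mice, 7 sham and 7 TBI E4/Abca1+/+ mice, and 7 sham and 8 TBI E4/Abca1+/- mice. No group carried mouse Apoe, so no comparison with unmodified animals was possible, and the strain origin of the DNA beside the replaced gene was not given in the sources used here.

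Genes that lie close together on a chromosome are usually inherited together, so the DNA beside a targeted gene travels with it when a line is bred. APOE itself is the main lipid carrier made in the brain, chiefly by astrocytes, and its APOE4 form is the strongest common genetic risk factor for late-onset Alzheimer's disease. The genes around it have unrelated roles. Gsk3a, Mark4 and Dmpk encode serine/threonine kinases, of which GSK3 alpha acts in glycogen metabolism and Wnt signalling and, like MARK4, can phosphorylate tau, while DMPK is the kinase whose gene is expanded in myotonic dystrophy. Nova2 encodes a neuronal RNA-binding protein that controls alternative splicing, Six5 a homeobox transcription factor, and Irf2bp1 a transcriptional corepressor. Grik5 encodes a kainate-type glutamate receptor subunit, Eml2 a microtubule-associated protein, and Bcam a laminin-binding adhesion molecule of the immunoglobulin superfamily.

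In the RefSeq annotation of GRCm38.p6 (the mm10 build used by the authors), Apoe lies at chr7:19696244-19701310. The gene span of Bcam (chr7:19756138-19770532) begins 54.8 kb away on the higher-coordinate side. On the lower-coordinate side lie Mark4 (chr7:19425102-19459330) at 237 kb, Eml2 (chr7:19176421-19206482) at 490 kb, Six5 (chr7:19094544-19098549) at 598 kb, Dmpk (chr7:19083646-19093821) at 602 kb, Irf2bp1 (chr7:19004058-19006763) at 689 kb and Nova2 (chr7:18925888-18965319) at 731 kb. Grik5 (chr7:25009849-25075694) and Gsk3a (chr7:25228258-25237851) lie on the other side at 5.31 and 5.53 Mb, where they were numbers 99 and 104 by distance of the measured chromosome 7 genes, so that they are neighbours of Apoe only in a loose sense. Dmpk and Six5 are adjacent on the plus strand, with 722 bases between the end of the first and the start of the second.

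The 9 genes had a high GC content, and so had many other genes near Apoe. The longest GENCODE M21 transcripts of the 9 genes held 56.3% (Nova2) to 63.6% (Irf2bp1) G and C. The median over all genes was 50.2%, and 7 of the 9 were among the top 5% of genes. The 43 measured genes within 1 Mb of Apoe, which include 7 of the 9, had a median of 59.1%. Of these 43 genes, 24 were in the tenth of all genes with the highest GC content, and 18 of those are not among the 9. The first 120 coding bases of Gsk3a and Nova2 are set below against those of their closest relatives, Gsk3b on chromosome 16 (38089001 to 38246084) and Nova1 on chromosome 12 (46697895 to 46819480), because the GC content differed within each pair; G and C are in capitals, and the sequences are from GENCODE M21 on GRCm38, 5′ to 3′ on the coding strand.
Gsk3a: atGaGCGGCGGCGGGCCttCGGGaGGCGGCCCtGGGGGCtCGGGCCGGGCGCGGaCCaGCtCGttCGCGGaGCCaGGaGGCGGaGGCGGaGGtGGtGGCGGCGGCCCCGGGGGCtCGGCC
Gsk3b: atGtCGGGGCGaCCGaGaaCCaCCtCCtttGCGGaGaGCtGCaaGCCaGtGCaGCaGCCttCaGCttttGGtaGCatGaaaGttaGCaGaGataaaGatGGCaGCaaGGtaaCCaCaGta
Nova2: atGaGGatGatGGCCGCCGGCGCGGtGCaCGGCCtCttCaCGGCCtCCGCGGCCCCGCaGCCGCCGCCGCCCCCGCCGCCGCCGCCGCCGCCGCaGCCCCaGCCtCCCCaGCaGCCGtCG
Nova1: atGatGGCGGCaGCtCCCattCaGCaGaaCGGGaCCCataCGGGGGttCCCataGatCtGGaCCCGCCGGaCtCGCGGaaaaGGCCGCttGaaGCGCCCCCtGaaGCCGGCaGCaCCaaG
G and C made up 82.5% of these bases in Gsk3a and 52.5% in Gsk3b, and 82.5% in Nova2 against 64.2% in Nova1. Over the whole coding sequence the shares were 59.0% and 48.5% for the GSK3 genes and 70.6% and 50.2% for the NOVA genes. The pair of Irf2bp1 and its relative Irf2bp2, whose bases are not shown, went the other way. Irf2bp1 had 65.8% in the first 120 coding bases against 72.5% in Irf2bp2, and 64.8% against 66.8% over the whole coding sequence.

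RefSeq promoter windows of 300 bases (250 before to 50 after a start) were given for 8 of the 9 genes, 9 windows in all, and none was given for Mark4. The windows of the adjacent genes Dmpk (chr7:19083608-19083907, plus strand) and Six5 (chr7:19094294-19094593, plus strand) are shown because these genes had the largest isoform differences; capitals mark the GC box GGGCGG, searched on both strands (CCGCCC on the other).
Dmpk: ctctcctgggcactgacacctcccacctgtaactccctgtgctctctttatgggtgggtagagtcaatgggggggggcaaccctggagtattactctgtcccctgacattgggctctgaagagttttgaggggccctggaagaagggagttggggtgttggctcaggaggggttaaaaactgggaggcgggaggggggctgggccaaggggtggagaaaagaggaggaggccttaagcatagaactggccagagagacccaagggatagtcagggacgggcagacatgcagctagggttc
Six5: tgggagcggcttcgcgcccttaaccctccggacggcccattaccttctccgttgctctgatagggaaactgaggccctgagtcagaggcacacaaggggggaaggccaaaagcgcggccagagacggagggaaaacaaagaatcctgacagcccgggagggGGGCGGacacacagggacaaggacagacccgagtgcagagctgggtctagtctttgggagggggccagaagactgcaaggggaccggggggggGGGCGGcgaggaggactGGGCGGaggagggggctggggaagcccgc
The Six5 window held 3 GC boxes and the Dmpk window 0. Of the 9 windows, 6 held at least 1 GC box, a share beside 59.8% of the windows of all measured genes and 35.7% of all windows in the table, and their GC content ran from 54.3% (Gsk3a) to 72.0% (Grik5). The match of these letters is a description of the window and not of binding.

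Total counts per mouse ran from 4421308 to 37877346, so that 3 counts, taken as the floor, stood for 0.679 CPM in the shallowest and 0.0792 CPM in the deepest library. The median total was 18871446 in the 28 Abca1+/- and 8350020 in the 30 Abca1+/+ libraries, with ranges that overlapped (5471936 to 37877346 and 4421308 to 17148953). Abca1 itself had a lower median with a single copy in sham mice of both isoforms and in E3 TBI mice. In E3 sham mice it had 29.2 to 41.6 CPM (median 35.3) with a single copy and 37.7 to 60.8 CPM (median 47.7) with both. In E4 TBI mice the median was higher with a single copy, at 81.0 to 214 CPM (median 130) against 98.7 to 296 CPM (median 121). In every genotype Abca1 was higher in TBI than in sham mice. The row of mouse Apoe held 16.4 to 28.9 CPM over all mice, a level of reads on a gene that was replaced, and its log2 fold change between APOE4 and APOE3 mice was -0.02 (standard error 0.04). All 5 markers were measured for neurons, astrocytes, microglia, oligodendrocytes, endothelium, pericytes and smooth muscle, and hippocampus, and none had a mean of 0. Choroid plexus transcripts summed to 11.5 CPM in the lowest and 2028 CPM in the highest mouse, and 1 E4/Abca1+/- TBI mouse had the lowest sum of hippocampal markers (294 CPM) while 1 E4/Abca1+/- sham mouse stood high in injury-raised genes; results were also computed without this pair of mice. Striatal markers summed to as much as 645 CPM in the E4/Abca1+/- TBI group (median 119 CPM), against at most 191 CPM in any other group. The part of such tissue in the results was not tested.

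Levels per transcript length spread over a wide range. Gsk3a and Grik5 were the most abundant, at 62.1 ± 4.51 and 59.2 ± 4.40 CPM per kb (SD, n = 58), followed by Eml2 at 49.4 ± 5.62. Irf2bp1 (16.7 ± 2.24), Nova2 (16.3 ± 1.85) and Mark4 (12.2 ± 1.41) came next, and Bcam (6.70 ± 1.12), Dmpk (3.80 ± 0.899) and Six5 (0.888 ± 0.250) were low. Neighbours in this order within 1 SD of each other were Gsk3a and Grik5, and Irf2bp1 and Nova2. Six5 rested on 8 to 95 counts per library and Dmpk on 45 to 352, whereas Grik5 had 879 to 8166.

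**Figure D1:**
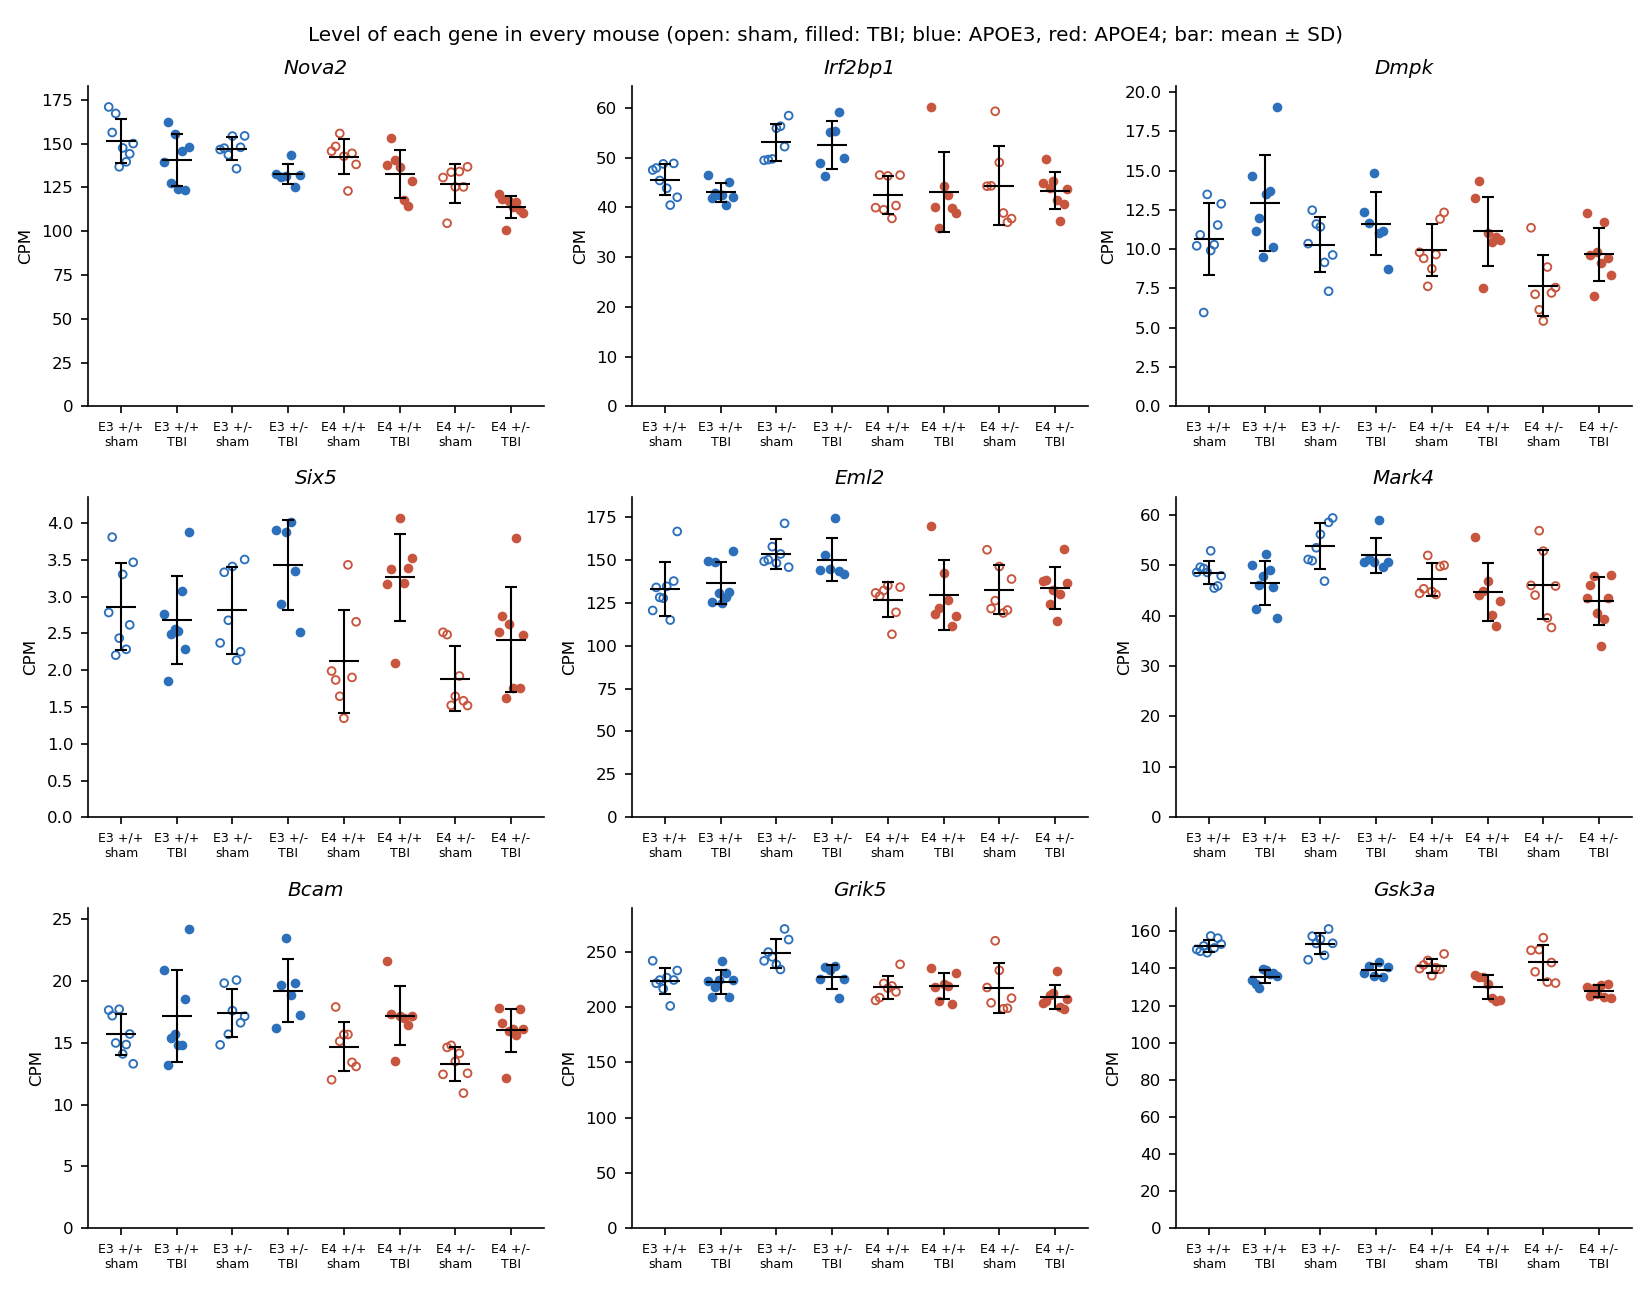
Level of each of the 9 genes in every mouse, in CPM, in each of the 8 groups; open points are sham and filled points TBI mice, blue is APOE3 and red APOE4, and black bars are the mean ± SD (n = 6 to 8). Each panel starts at 0; the ranges of the APOE3 and APOE4 mice overlap in all 9 panels.

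All 9 genes were lower in APOE4 than in APOE3 mice when averaged over Abca1 copies and injury, which is what they were chosen by. Values are given by gene, starting with the kinases. Gsk3a ran from 129.6 to 161 CPM (median 145) in the 29 APOE3 mice and from 122 to 157 CPM (median 136) in the 29 APOE4 mice, which is a log2 difference of -0.10 (standard error 0.02). Mark4 had 39.5 to 59.4 CPM (median 49.7) with APOE3 and 33.9 to 56.8 CPM (median 44.8) with APOE4, which is a log2 difference of -0.15 (standard error 0.04). Dmpk had 5.97 to 19.0 CPM (median 11.1) with APOE3 and 5.43 to 14.3 CPM (median 9.62) with APOE4, which is a log2 difference of -0.25 (standard error 0.08). In each kinase the ranges of the isoforms overlapped over most of their length, and 25, 23 and 22 of the 29 APOE4 mice lay below the APOE3 median.

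Among the RNA-binding and transcription factors, Nova2 had 123 to 171 CPM (median 144) with APOE3 and 101 to 156 CPM (median 129) with APOE4, which is a log2 difference of -0.15 (standard error 0.03). Six5, the least abundant of the 9 genes, had the largest log2 fold change at -0.33 (standard error 0.09), with 1.85 to 4.02 CPM (median 2.76) in APOE3 and 1.35 to 4.07 CPM (median 2.48) in APOE4 mice. Irf2bp1 had 40.4 to 59.1 CPM (median 47.9) with APOE3 and 35.9 to 60.2 CPM (median 42.4) with APOE4, which is a log2 difference of -0.16 (standard error 0.04). The highest Six5 and Irf2bp1 values of all belonged to APOE4 mice. In the receptor subunit Grik5 the ranges were 201 to 270.4 CPM (median 226) and 198 to 259.7 CPM (median 213), with a log2 fold change of -0.10 (standard error 0.02). Eml2 had 115 to 174 CPM (median 144) with APOE3 and 107 to 169.8 CPM (median 129.8) with APOE4, which is a log2 difference of -0.13 (standard error 0.04), and Bcam 13.2 to 24.2 CPM (median 17.1) with APOE3 and 10.9 to 21.6 CPM (median 15.7) with APOE4, which is a log2 difference of -0.19 (standard error 0.05). All 9 genes passed the adjusted p of 0.05 that the same contrast gave over all genes, beside 15.0% of the 15171 genes, and nothing is read from that count because the contrast chose them.

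The size of the isoform difference by stratum of Abca1 copies and injury depended on the treatment of GC content. As fitted, in Abca1+/- mice the median log2 fold change over the 9 genes was -0.22 in sham and -0.27 in TBI mice, and every gene was lower with APOE4 (-0.57 to -0.10 and -0.51 to -0.12). In Abca1+/+ mice the medians were -0.09 in sham and -0.05 in TBI mice, with a range of -0.47 to -0.04 and of -0.22 to 0.24; the median over all genes lay between -0.01 and 0.02 in the 4 strata. With an offset for the GC content of transcripts in each library, described further on, the medians were -0.05 in Abca1+/- sham, -0.18 in Abca1+/- TBI, -0.07 in Abca1+/+ sham and -0.06 in Abca1+/+ TBI mice, so that the gap between Abca1+/- and Abca1+/+ sham mice was no longer seen. With it 7 of the 9 genes were below 0 in Abca1+/- sham mice, the exceptions being Gsk3a (0.07, standard error 0.04) and Grik5 (0.02, standard error 0.05). Values in CPM, without that offset, are given for Bcam and Six5. In Abca1+/- sham mice Bcam had 14.8 to 20.1 CPM (median 17.1) with APOE3 and 10.9 to 14.8 CPM (median 13.5) with APOE4, without overlap. In Abca1+/+ TBI mice Bcam had 13.2 to 24.2 CPM (median 15.5) with APOE3 and 13.5 to 21.6 CPM (median 17.2) with APOE4. The isoforms were thus apart in the first stratum and interleaved in the second. Six5 was higher with APOE4 in Abca1+/+ TBI mice, at 2.10 to 4.07 CPM (median 3.38) against 1.85 to 3.89 CPM (median 2.55), which is a log2 difference of 0.24 (standard error 0.18), and lower in the other 3 strata.

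In Abca1+/- TBI mice all 8 APOE4 mice lay below all 6 APOE3 mice for Mark4, Nova2 and Gsk3a. Over all genes 0.699% showed this in that stratum, and 0.613% in Abca1+/- sham mice, where Bcam did. In Abca1+/+ sham mice Gsk3a was without overlap, at 148 to 157 CPM (median 152) in 8 APOE3 mice and 136 to 148 CPM (median 140.3) in 7 APOE4 mice, beside 0.119% of all genes; in Abca1+/+ TBI mice, where the share over all genes was 0.0857%, none of the 9 was. Nothing is read from these counts, because the isoform difference chose the genes.

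**Figure D2:**
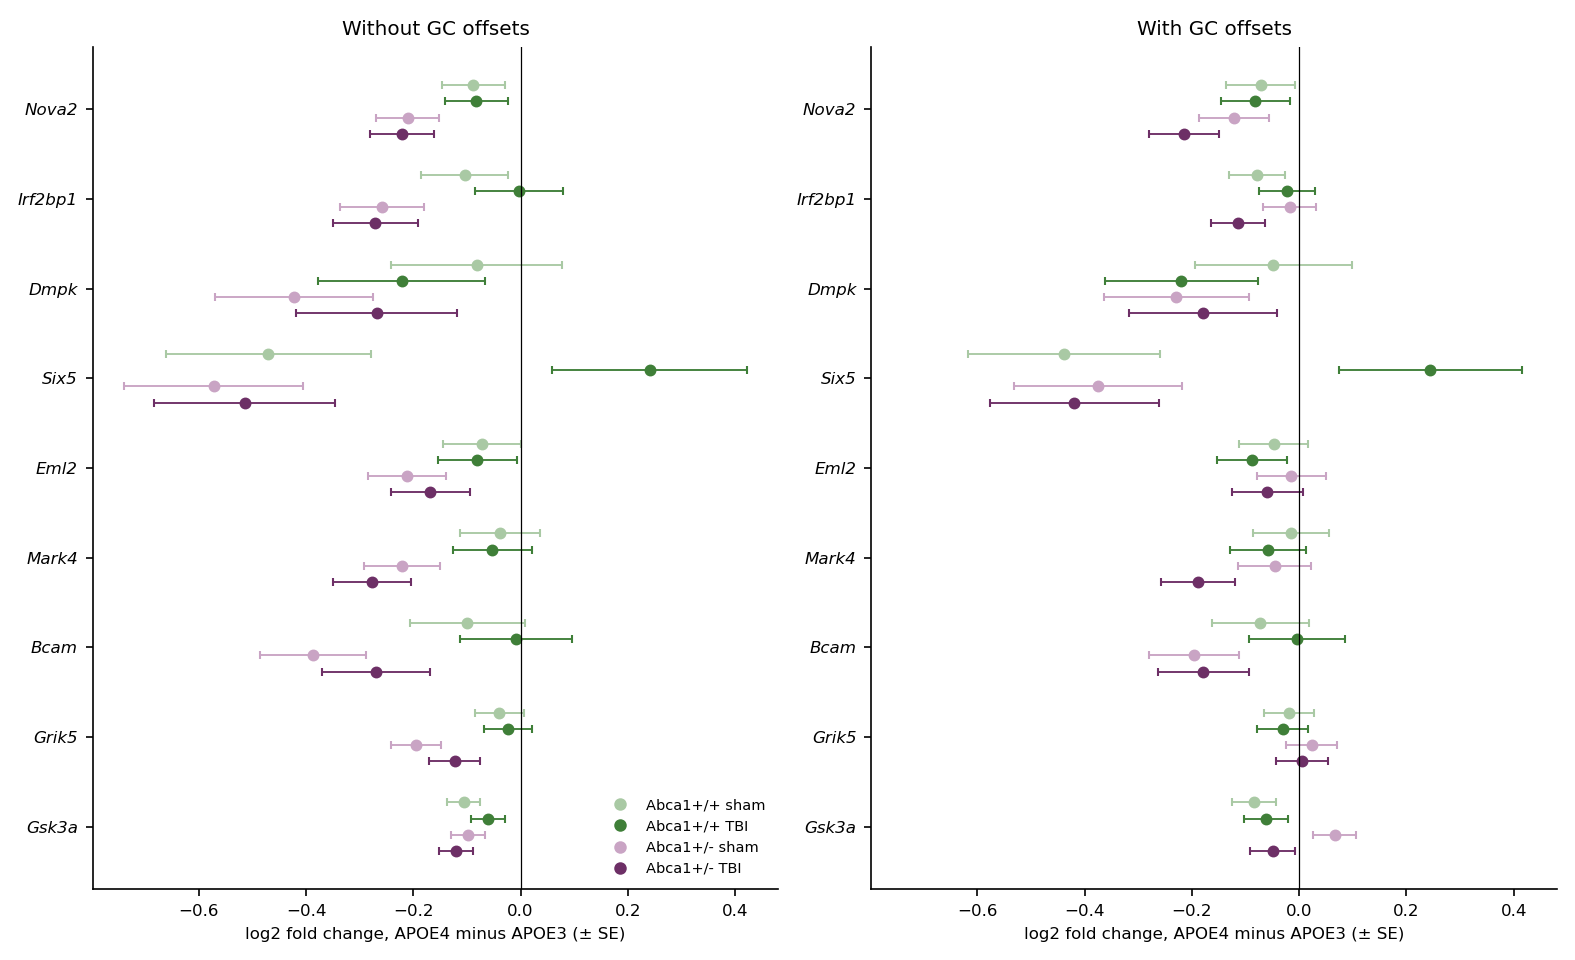
Log2 fold change between APOE4 and APOE3 mice (± standard error from the edgeR fit) for each of the 9 genes in the 4 strata of Abca1 copies and injury, on the left as fitted and on the right with an offset for GC content in each library. On the left the Abca1+/- strata (purple) lie further below 0 than the Abca1+/+ strata (green) in every gene but Gsk3a. On the right Six5 (Abca1+/+ TBI, 0.24), Grik5 (both Abca1+/- strata) and Gsk3a (Abca1+/- sham) lie above 0, and Six5 in Abca1+/+ TBI mice does so on the left as well.

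The interaction of isoform with Abca1 copies, which asks whether the isoform difference depends on Abca1, was negative in all 9 genes, from -0.03 for Gsk3a to -0.43 for Six5. None of the 9 passed an adjusted p of 0.05 in edgeR's quasi-likelihood test (0 called, beside 0.0659% of all genes, 10 genes); 6 had an unadjusted p under 0.05 with edgeR, beside 13.5% of all genes, and 6 with DESeq2, which also called 0, beside 0.501% of all genes. The smallest adjusted p was 0.204, for Mark4 (-0.20, standard error 0.07). With an offset for GC content the values ran from -0.30 to 0.08, and 0 had an unadjusted p under 0.05. The interaction of isoform with injury was -0.03 to 0.38, and again 0 of the 9 were called by edgeR or DESeq2, beside 0.00659% of all genes (1 gene); Six5 alone had an unadjusted p under 0.05, with both tools (edgeR 0.38, standard error 0.18, adjusted p = 1.00).

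Isoform calls were counted by position over all measured chromosome 7 genes. Of the 43 measured genes within 1 Mb of Apoe, Apoe included, 8 passed the adjusted p of 0.05 (18.6%), all lower with APOE4; 7 of them are the genes chosen for it, and the other was Qpctl, named after its value was seen, at -0.11 (standard error 0.04). The share within 1 Mb is therefore set by the choice, and without Apoe and the chosen genes 1 of 35 was called. No measured gene lay between 1 and 2 Mb. The share was 21.6% of 51 genes from 2 to 5 Mb, 13.3% of 128 genes from 5 to 10 Mb, where Grik5 and Gsk3a lie, 29.0% of 162 genes from 10 to 20 Mb and 14.6% of 747 genes further away. On the other chromosomes it was 14.9% of 13868 genes.

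The 5 measured genes nearest to Apoe on each side were looked at one by one. On the lower-coordinate side these were Apoc1 (-0.23, standard error 0.19), Apoc4 (1.25, standard error 0.61, at a mean of 0.460 CPM), Clptm1 (-0.02, standard error 0.02), Relb (-0.08, standard error 0.06) and Clasrp (-0.17, standard error 0.07). On the higher-coordinate side they were Tomm40 (0.02, standard error 0.03), Nectin2 (-0.07, standard error 0.05), Bcam, Bcl3 (0.35, standard error 0.20) and Pvr (0.07, standard error 0.06), all as log2 fold change between APOE4 and APOE3 mice. Among the 35 genes within 1 Mb that are neither Apoe nor among the 9, 24 had a negative log2 fold change, with a median of -0.03. Among the called genes of chromosome 7, the largest isoform differences lay 14.9 to 16.1 Mb from Apoe. They were those of Eps8l1 (3.77, 0.375 CPM on average with APOE3 and 5.36 CPM with APOE4), Oscar (3.02), Ptprh (2.65), D630041G03Rik (0.870 and 3.41 CPM) and Rpl28 (-1.18). These genes were named after their values were seen.

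**Figure D3:**
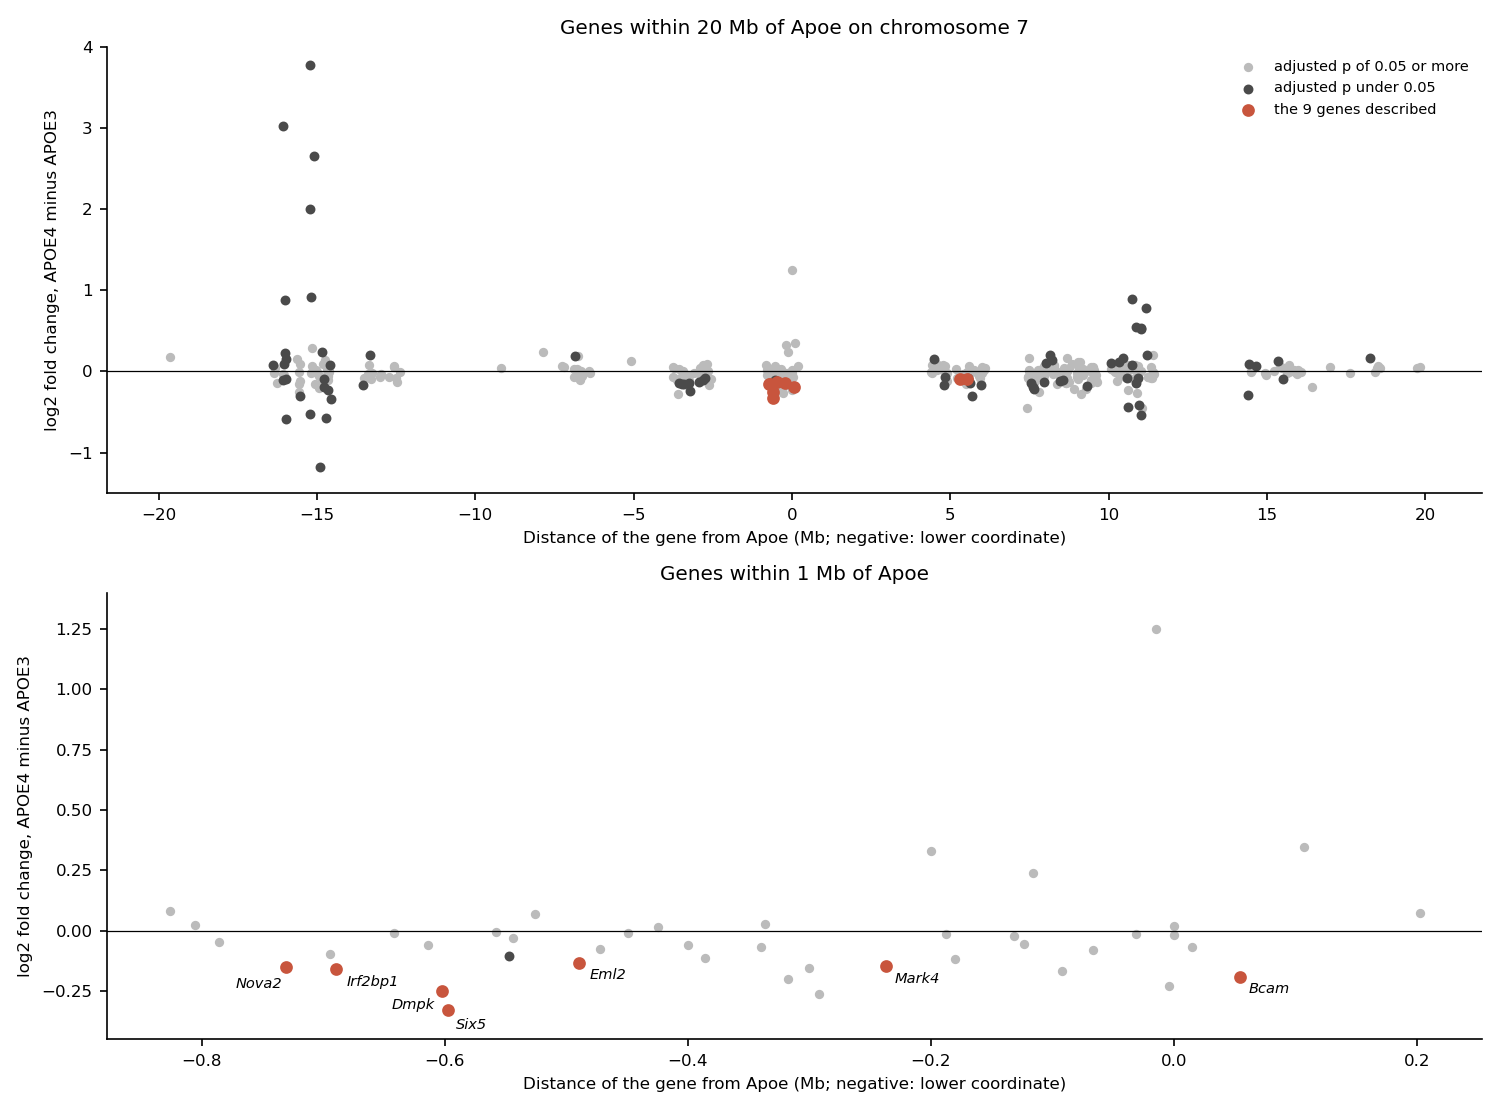
Log2 fold change between APOE4 and APOE3 mice against the distance of a gene from Apoe (Mb, negative for lower coordinates), for chromosome 7 genes within 20 Mb (top) and within 1 Mb (bottom); dark points have an adjusted p under 0.05 and red points are the 9 genes, named at the bottom where they lie within 1 Mb. The highest points, up to 3.77, lie at the left of the upper panel, and the red points lie between -0.33 and -0.10.

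Over all genes the isoform difference varied with GC content, mainly in Abca1+/- mice. Averaged over the strata, the decile of genes with the lowest GC content (1502 genes, 31.0 to 41.9%) had a median log2 fold change of 0.05, and the decile with the highest (1502 genes, 58.3 to 75.5%), which holds 8 of the 9 genes, of -0.07. The lowest and highest deciles had medians of 0.10 and -0.17 in Abca1+/- sham, 0.08 and -0.09 in Abca1+/- TBI, 0.03 and -0.03 in Abca1+/+ sham, and -0.02 and 0.00 in Abca1+/+ TBI mice. Averaged again, in the highest decile 334 genes were called lower with APOE4 and 21 higher. Its 1297 genes on other chromosomes had a median of -0.07, with 80.8% below 0 and 23.4% called. Its 18 genes within 1 Mb of Apoe that are not among the 9 had a median of -0.06, with 77.8% below 0. The 19 genes within 1 Mb outside that decile had a median of -0.01. All 9 chosen genes lay below the median of their own decile, and nothing is read from this because the same contrast chose them.

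The libraries differed in this respect. The slope of a library's log2 deviation on GC content, computed without the 9 genes, was above 0 in 13 of 13 E3/Abca1+/- mice (0.03 to 0.12 per 10 percentage points of GC, median 0.07) and in 15 of the 45 other mice (-0.13 to 0.17, median -0.02). By group it was 0.08 ± 0.03 (SD, n = 7) in E3/Abca1+/- sham and 0.06 ± 0.02 (n = 6) in E3/Abca1+/- TBI mice, and -0.04 ± 0.08 (n = 7) and -0.01 ± 0.05 (n = 8) in the E4/Abca1+/- groups. An offset for GC content in each library was therefore added after the data were seen. With it the isoform log2 fold change was -0.01 for Grik5, -0.03 for Gsk3a, -0.05 for Eml2, -0.06 for Irf2bp1, -0.08 for Mark4, -0.11 for Bcam, -0.12 for Nova2, -0.17 for Dmpk and -0.25 for Six5, a median of -0.08 in place of -0.15. Nova2 and Six5 were then called, beside 10.4% of all genes, and nothing is read from that count or from the signs of the 9 values, which the choice of genes fixes. Whether the shift in GC content arose in the tissue or in the libraries was not tested.

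**Figure D4:**
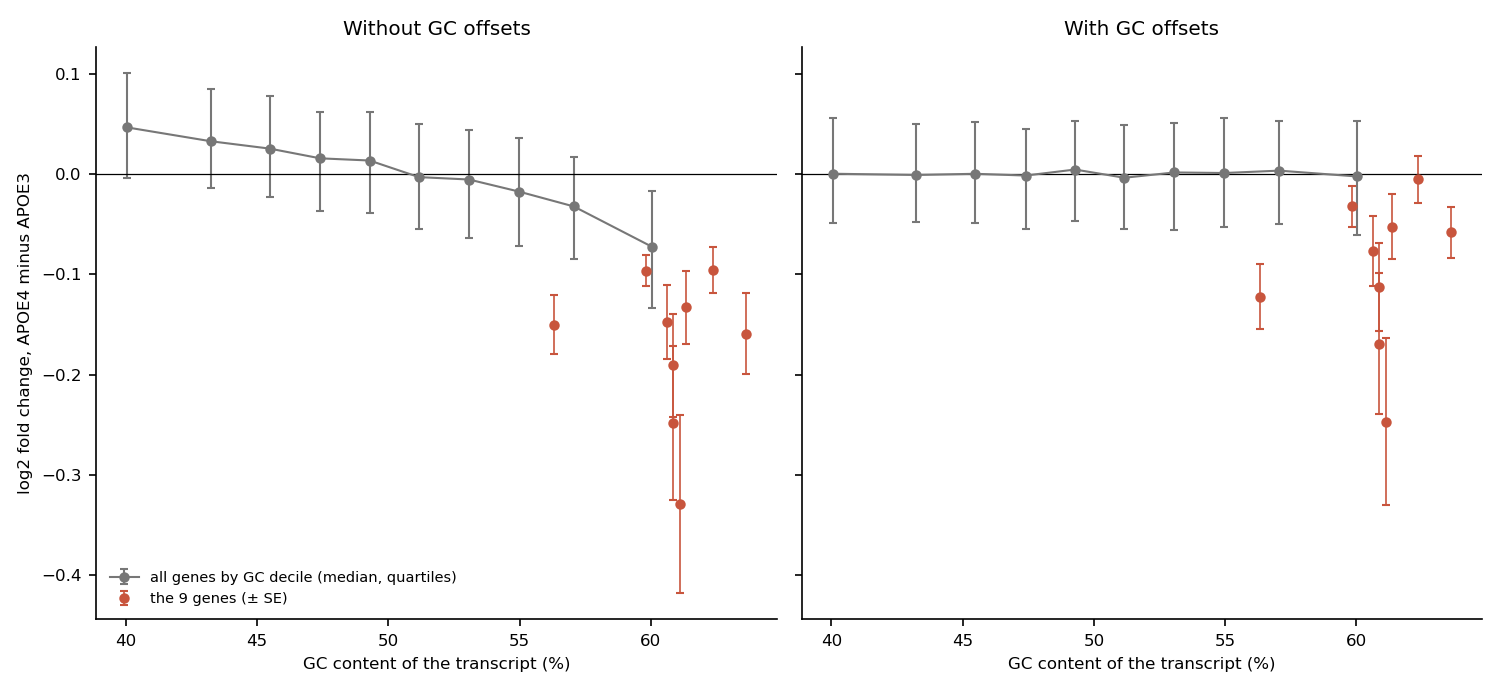
Isoform log2 fold change (APOE4 minus APOE3) against the GC content of the transcript in percent; grey points are the medians of the 10 GC deciles of all genes with their quartiles and red points the 9 genes ± standard error, on the left as fitted and on the right with a GC offset in each library. The decile medians fall from 0.05 to -0.07 on the left and lie near 0 on the right, and the red points lie below them.

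The genes were chosen for isoform differences and not for injury, which was tested. If isoform differences within single strata entered the choice, the tests within single genotypes may not be independent of it. Gsk3a fell and Bcam, Dmpk and Six5 rose after TBI when the 4 genotypes were averaged, and Nova2 fell. These were 5 of the 9 genes, beside 53.3% of all genes, a share near that of the table as a whole. Gsk3a had a log2 difference of -0.15 (standard error 0.02, adjusted p = 4.72e-12) and Nova2 of -0.13 (standard error 0.03, adjusted p = 0.000172), both from edgeR's quasi-likelihood test over 58 mice. Six5, with -0.08 to 0.63 in the single genotypes, had 0.29 (standard error 0.09, adjusted p = 0.00514), Dmpk 0.24 (standard error 0.08, adjusted p = 0.00792) and Bcam 0.19 (standard error 0.05, adjusted p = 0.00136), likewise from edgeR. Mark4 (-0.07), Grik5 (-0.05), Irf2bp1 (-0.03) and Eml2 (0.01) did not pass with edgeR; Mark4 and Grik5 passed as well, both lower, with DESeq2 (7 of the 9, beside 54.1% of all genes) and with the GC offset (7 of the 9, beside 63.3%). The GC offset moved the whole table, with a median over all genes of -0.07 in place of 0.01, and with 2995 genes called higher and 6612 lower in place of 4403 and 3685.

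Gsk3a had a negative log2 fold change in all 4 genotypes and was called in 3. In E3/Abca1+/+ mice it had 148 to 157 CPM (median 152) in sham and 129.6 to 139.7 CPM (median 136) in TBI mice, in E3/Abca1+/- mice 145 to 161 CPM (median 154) and 135 to 143 CPM (median 139). In E4/Abca1+/+ mice it had 136 to 148 CPM (median 140.3) in sham and 122 to 136 CPM (median 132) in TBI mice, and in E4/Abca1+/- mice 132 to 157 CPM (median 143) and 124 to 132 CPM (median 128). Sham and TBI mice did not overlap in the E3 genotypes and in E4/Abca1+/- mice, and met at the edge in E4/Abca1+/+ mice. The share of all genes without such overlap was not computed, so nothing is read from this. The log2 fold change was -0.17 (standard error 0.03, adjusted p = 0.000839) in E3/Abca1+/+, -0.14 (standard error 0.03, adjusted p = 0.00473) in E3/Abca1+/- and -0.16 (standard error 0.04, adjusted p = 0.00410) in E4/Abca1+/- mice by edgeR. In E4/Abca1+/+ mice it was -0.12 (standard error 0.04), with an adjusted p of 0.0513 by edgeR and 0.0175 by DESeq2. With libraries thinned to the lowest total the call held in the E3 genotypes and was lost in E4/Abca1+/- mice (-0.14, standard error 0.05, edgeR adjusted p = 0.0591).

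Nova2 fell in the Abca1+/- genotypes. In E3/Abca1+/- mice it had 136 to 154 CPM (median 147) in sham and 125 to 143 CPM (median 132) in TBI mice, which is a log2 difference of -0.15 (standard error 0.04, edgeR adjusted p = 0.00890). In E4/Abca1+/- mice it had 105 to 137 CPM (median 131) in sham and 101 to 121 CPM (median 115) in TBI mice, which is a log2 difference of -0.16 (standard error 0.05, edgeR adjusted p = 0.0302). The ranges overlapped in both genotypes. The values in E3/Abca1+/+ (-0.11, standard error 0.06) and E4/Abca1+/+ mice (-0.10, standard error 0.06) had the same sign and did not pass. With thinned libraries neither call of Nova2 held (edgeR adjusted p = 0.109 and 0.135), and the interaction of injury with Abca1 copies was not tested.

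Bcam rose in E4/Abca1+/- mice, from 10.9 to 14.8 CPM (median 13.5) in sham to 12.1 to 17.8 CPM (median 16.1) in TBI mice, which is a log2 difference of 0.26 (standard error 0.09, edgeR adjusted p = 0.0238). With the GC offset it was 0.17 and no longer passed, nor did it with thinned libraries (edgeR adjusted p = 0.0855). Six5 rose in E4/Abca1+/+ mice, from 1.35 to 3.43 CPM (median 1.90) in sham to 2.10 to 4.07 CPM (median 3.38) in TBI mice, which is a log2 difference of 0.63 (standard error 0.20, edgeR adjusted p = 0.0414), a call that thinning also ended (edgeR adjusted p = 0.137). Grik5 fell in E3/Abca1+/- mice, from 234 to 270.4 CPM (median 245) in sham to 208 to 237 CPM (median 229) in TBI mice, which is a log2 difference of -0.13 (standard error 0.04, edgeR adjusted p = 0.0397). This call of Grik5 was lost with the GC offset (-0.11, edgeR adjusted p = 0.120) and with thinned libraries (edgeR adjusted p = 0.128). Dmpk passed in the average over genotypes and, as fitted, in no single one, with values of 0.15 to 0.33 in the 4 genotypes. With thinned libraries Dmpk passed in E4/Abca1+/- mice (0.60, edgeR adjusted p = 0.00409) and Bcam in E4/Abca1+/+ mice (0.37, edgeR adjusted p = 0.0406). In all, 1 of the 9 genes was called in E3/Abca1+/+ mice (22.7% of all genes), 3 in E3/Abca1+/- mice (23.7%), 1 in E4/Abca1+/+ mice (13.7%) and 3 in E4/Abca1+/- mice (32.3%).

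Cell type markers also moved with injury. The 5 neuronal markers summed to 7234 to 8336 CPM (median 7648) in the 29 sham mice and to 5154 to 7360 CPM (median 6459) in the 29 TBI mice. The 5 astrocyte markers summed to 4473 to 5885 CPM (median 5017) in sham and to 5644 to 9513 CPM (median 7253) in TBI mice, and the 5 microglial markers to 223 to 306 CPM (median 259) and to 369 to 673 CPM (median 444). Their part in the changes of the 9 genes was not tested, and in bulk tissue fewer cells of a type and less RNA per cell cannot be told apart. Between isoforms the ranges of all these lists overlapped. With sham and TBI mice pooled, the neuronal sum had a median of 7301 CPM with APOE3 and 7258 CPM with APOE4. The oligodendrocyte sum had 2650 CPM and 3040 CPM. The microglial sum is given by stratum, because sham and TBI mice did not overlap in it. Its median was 254 CPM with APOE3 and 250 CPM with APOE4 in Abca1+/+ sham mice, and 427 and 433 CPM in Abca1+/+ TBI mice. In Abca1+/- sham mice it was 246 and 268 CPM. In Abca1+/- TBI mice the microglial sum was 377 to 481 CPM (median 417) with APOE3 and 443 to 673 CPM (median 550.1) with APOE4, and its part in the isoform values there was not tested.

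Abca1+/- and Abca1+/+ mice differed in 3 of the 9 genes when isoform and injury were averaged, beside 17.9% of all genes. Irf2bp1 was higher in Abca1+/- mice by 0.15 (standard error 0.04, adjusted p = 0.00673) and Eml2 by 0.11 (standard error 0.04, adjusted p = 0.0262), and Nova2 was lower (-0.13, standard error 0.03, adjusted p = 0.000907), as log2 fold change from edgeR. Dmpk had -0.19 (standard error 0.08, edgeR adjusted p = 0.0738), and Mark4, Grik5, Bcam, Gsk3a and Six5 lay between -0.07 and 0.05 without passing. With the GC offset Eml2 dropped to 0.07 and did not pass, Irf2bp1 had 0.09 and Nova2 -0.17, which both passed, and Dmpk passed at -0.24, again 3 of the 9, beside 16.3% of all genes. With libraries thinned to equal totals Nova2 (-0.13), Irf2bp1 (0.13) and Dmpk (-0.24) passed and Eml2 (0.10, standard error 0.04, edgeR adjusted p = 0.0713) did not.

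Within the strata, Irf2bp1 in E3 mice had the clearest values. In sham mice it had 40.4 to 48.8 CPM (median 46.4) in E3/Abca1+/+ and 49.5 to 58.4 CPM (median 52.2) in E3/Abca1+/- mice, which is a log2 difference of 0.21 (standard error 0.05, edgeR adjusted p = 0.0352). It was the 1 gene of the 9 called there, beside 2.27% of all genes. In E3 TBI mice it had 40.5 to 46.6 CPM (median 42.5) with both copies and 46.3 to 59.1 CPM (median 52.6) with a single copy, which is a log2 difference of 0.29 (standard error 0.06, edgeR adjusted p = 0.0538), and 0 of the 9 were called, beside 0.0923% of all genes. With the GC offset these values were 0.03 and 0.15 and neither passed. In E3 mice 4 of the 9 genes in sham and 3 in TBI mice had an unadjusted p under 0.05 with edgeR. The share of all genes with such a p was not computed, so nothing is read from these counts. DESeq2 called 3 in E3 sham mice (Irf2bp1, Eml2 and Grik5), beside 4.81% of all genes, and 1 in E3 TBI mice (Irf2bp1), beside 1.05%.

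In E4 mice 0 of the 9 genes were called by edgeR for Abca1 copies, either in sham (0.870% of all genes) or in TBI mice (1.36%). In each, 2 had an unadjusted p under 0.05, again without a computed share over all genes. Nova2 came closest to a call. In E4 TBI mice it had 114 to 153 CPM (median 137) with both copies and 101 to 121 CPM (median 115) with a single copy, which is a log2 difference of -0.22 (standard error 0.06, edgeR adjusted p = 0.0735; DESeq2 adjusted p = 0.00810). In the other strata Nova2 had -0.17 (E4 sham), -0.09 (E3 TBI) and -0.04 (E3 sham). DESeq2 called 0 of the 9 in E4 sham mice, beside 2.89% of all genes, and 1 (Nova2) in E4 TBI mice, beside 4.72%.

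**Figure D5:**
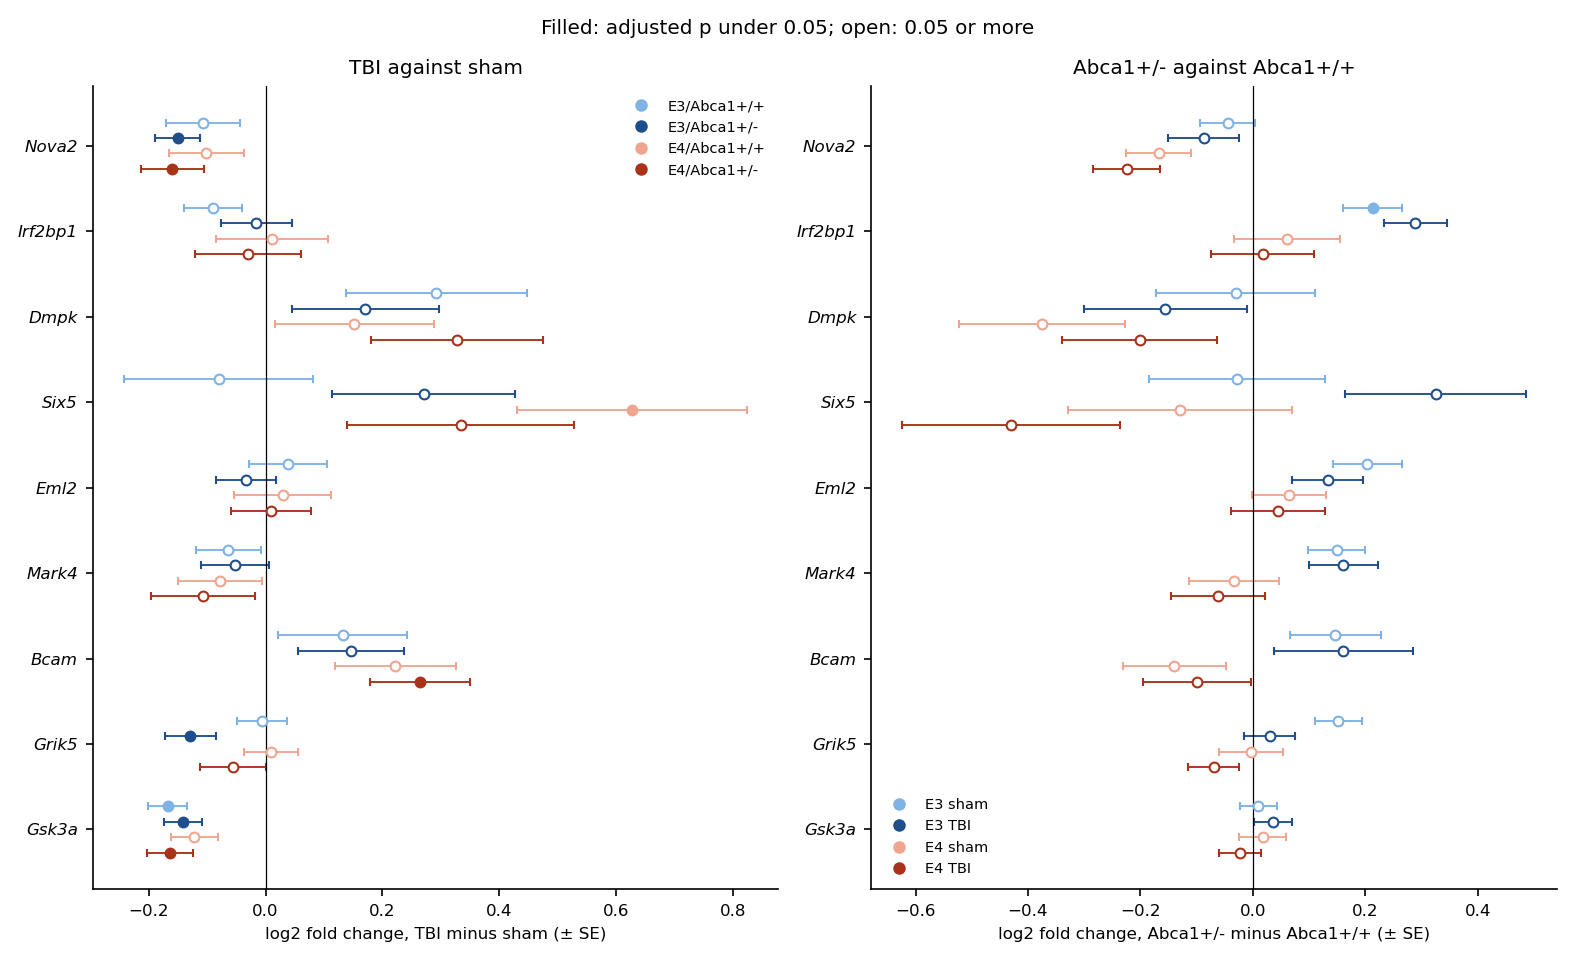
Log2 fold change (± standard error) of each of the 9 genes for TBI against sham in the 4 genotypes (left) and for Abca1+/- against Abca1+/+ in the 4 strata of isoform and injury (right); filled points have an edgeR adjusted p under 0.05. Gsk3a lies between -0.17 and -0.12 in all 4 genotypes on the left, and Irf2bp1 at 0.21 and 0.29 in the E3 strata on the right.

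For sex 0 of the 9 genes were called by edgeR or DESeq2, beside 10.1% of all genes with edgeR. Nova2 alone had an unadjusted p under 0.05, with a log2 fold change between the 28 female and 30 male mice of -0.06 (standard error 0.03, edgeR adjusted p = 0.132). The others lay between -0.07 and 0.03.

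Relatives of the 9 genes on other chromosomes were compared by a list of 26 genes, of which 23 were measured. Between isoforms 1 of the 23 was called, Cdc42bpa (-0.08, standard error 0.03, edgeR adjusted p = 0.0341), a kinase related to DMPK, beside 15.0% of all genes. Gsk3b, the other GSK3 gene, had -0.01 (standard error 0.03) and 46.1% GC, Nova1 0.05 (standard error 0.06) and 38.5% GC, and Irf2bp2 -0.04 (standard error 0.05) and 54.6% GC. The median GC content of the 23 was 51.0%, against 60.8% for the 9 genes. After TBI 12 of the 23 passed, 10 lower and 2 higher, beside 53.3% of all genes; Gsk3b fell by the same size as Gsk3a (-0.15, standard error 0.03, edgeR adjusted p = 1.49e-06) and Nova1 further than Nova2 (-0.45, standard error 0.06, edgeR adjusted p = 7.74e-09), with neither difference between relatives tested. Between Abca1+/- and Abca1+/+ mice 6 of the 23 passed, all lower with a single copy, beside 17.9% of all genes.

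The 9 genes varied together only in part. Over the 58 mice Pearson's r of log2(CPM + 1) was above 0 in 32 of 36 pairs, with a median of 0.29 and a range of -0.13 to 0.67. Taken on deviations from the 8 group means, the median was 0.19, and the adjacent genes Dmpk and Six5 had the highest value at 0.58. The gene most like each member lay on another chromosome for 8 of the 9, the exception being Shank1 for Nova2 (r = 0.85), 24.6 Mb from Apoe on chromosome 7. They were Atp5d for Irf2bp1 (0.88), Cplx1 for Gsk3a (0.87), Agap2 for Grik5 (0.86), Adgrb2 for Mark4 (0.82), Ssh3 for Dmpk (0.78) and Adam15 for Six5 (0.71), with Caprin1 for Eml2 (-0.80) and Ube2n for Bcam (-0.77) in the opposite direction. The 7 positive partners had 56.0 to 63.1% GC and the negative ones 42.0% and 40.7%. On deviations from the group means the partners were Lrrc4b for Irf2bp1 (0.87), Agap2 for Grik5 (0.83), Cirbp for Eml2 (0.81), Dip2b for Nova2 (0.77), Adgrb2 for Mark4 (0.77), P3h3 for Six5 (0.73) and Dmpk (0.71), Hs3st3a1 for Bcam (0.73) and Hltf for Gsk3a (-0.62). Here the positive partners had 49.8% (Dip2b) to 63.1% (Adgrb2) GC, and Hltf 39.9%. Hs3st3a1 had a mean of only 1.08 CPM. All these values of r share libraries, depth and GC slope and are given as a description.

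Exons of other genes overlap some of the 9, and the strand setting of the counts was not given in the sources used here. In GENCODE M21, 31.7% of the exonic bases of Nova2 lie opposite Gm26821 and 28.3% of those of Gsk3a opposite 9130221H12Rik, while Eml2 shares 2.38% with Mir330 and Bcam 1.63% with Gm26600. Reads of such partners cannot be told apart from those of Nova2 and Gsk3a without strand.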

How the data were processed

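RNA of 58 mice was measured by bulk RNA-seq. The authors deposited 1 table of read counts per gene, made with Subread 1.5.0 and featureCounts on mm10, without normalization; the library kit's strand setting and the annotation were not given in the sources used here. Of its 15173 rows, 2 blank ones were dropped, and 23 symbols that had become dates were restored from the identifiers. The build mm10 and the tools are from the submitters' processing notes. Positions came from RefSeq GRCm38.p6 (14999 genes, 98.9%) and transcript GC content from the longest GENCODE M21 transcript (15012 genes, 99.0%).

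Counts were scaled with TMM factors (0.954 to 1.04) over all mice. edgeR's filterByExpr removed 0 genes. The tests were edgeR's quasi-likelihood test with Benjamini-Hochberg adjustment over 15171 genes at 0.05, within the groups compared for injury and Abca1 copies in single strata, and over the 8 groups for averages, interactions, sex and the isoform strata; sex was a term only in its own test. Standard errors are those of the edgeR log2 fold change. Each library is a separate animal, and of 183 within-group pairs 0 held the same counts throughout. The procedure was checked on simulated counts with changes larger than most reported here and without a trend in GC content, so the check does not cover these.

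The 9 genes and all lists were chosen with earlier results of these data known, so no list is independent evidence. Genes named are these 9, Apoe and Abca1, the 5 measured genes nearest Apoe on each side, the gene most like each of the 9, family relatives and marker lists; others are marked in the text. Alternatives were DESeq2 size factors, DESeq2's Wald test, no filter, at least 10 counts in every mouse, sex as a covariate, thinning to the lowest total, a single fit over all mice, and start sites in place of gene spans. Chosen after seeing the data were a GC offset per library (a spline with 6 degrees of freedom) and leaving out 2 mice. The software was R 4.3.3, edgeR 4.0.16, DESeq2 1.42.0, Python 3.11.15, numpy 2.4.6, pandas 2.3.3 and matplotlib 3.10.9.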

Additional observations from a re-analysis of the deposited data

Results flagged for a closer look

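Single mice stood apart from their group in 7 of the 72 combinations of gene and group by Dixon's test at the 95% level, which chance alone flags in about 1 in 20 groups. High values were Mark4 at 58.9 CPM and Eml2 at 174 CPM, both in replicate 4 of the E3/Abca1+/- TBI group (next highest 51.2 and 153 CPM), Eml2 at 167 CPM in an E3/Abca1+/+ sham mouse (next highest 138 CPM), Irf2bp1 at 60.2 CPM in replicate 2 of the E4/Abca1+/+ TBI group (next highest 44.2 CPM) and Grik5 at 232 CPM in an E4/Abca1+/- TBI mouse (next highest 213 CPM). Low values were Bcam at 12.1 CPM in an E4/Abca1+/- TBI mouse (next lowest 15.65 CPM) and Nova2 at 104.5 CPM in an E4/Abca1+/- sham mouse (next lowest 125 CPM). Replicate 2 of the E4/Abca1+/+ TBI group had the highest GC slope of all libraries (0.17 per 10 percentage points), and replicate 4 of the E3/Abca1+/- TBI group one of 0.10, number 4 in order; the part of the slope in these values was not tested. The Grik5 mouse and the Nova2 mouse are the ones left out in the alternative without 2 mice.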

How the results depend on the processing

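The 17 changes called for injury and Abca1 copies kept their sign in the 120 refits that could differ from the reported ones and their call in 106, leaving out refits without a filter, which removed 0 genes, and those without 2 mice in groups that do not hold them. Thinning every library to 4421308 counts left 1 of the 9 genes called for TBI in each Abca1+/- genotype (Gsk3a with APOE3; Dmpk, not called before, with APOE4) and 0 for Abca1 in E3 sham mice, and gave 7, 11, 30, 69 and 1284 isoform calls at 2 to 5, 5 to 10, 10 to 20 and over 20 Mb and on other chromosomes. After TBI in E4/Abca1+/+ mice 2 genes were called with DESeq2 size factors, DESeq2's Wald test, the sex covariate and the single fit, 3 with the GC offset and 0 with at least 10 counts in every mouse, where Six5 was removed. Of all genes, 14.1% were called there with DESeq2 size factors, 15.8% with DESeq2's Wald test and 22.1% with the GC offset. With at least 10 counts it was 13.1% of the 12401 genes kept, in place of 13.7% as reported. For Abca1 in E3 sham mice DESeq2's test called 3 (4.81% of all genes). The sex covariate called 2 there (3.35%), as did at least 10 counts (3.46% of the genes kept). The single fit (1.59%) and the GC offset (0.382%) called 0. In E3 TBI mice 1 was called with DESeq2 size factors (0.185%), DESeq2's test (1.05%) and the sex covariate (0.290%). In E4 TBI mice 1 was called with DESeq2's test, the single fit and the GC offset. These called 4.72%, 8.96% and 2.37% of all genes in place of 1.36%. For sex 1 gene (Nova2) was called without 2 mice, beside 15.9% of all genes in place of 10.1%. The GC offset moved the median isoform difference of the 9 genes from -0.15 to -0.0767. With it the isoform calls were 4 within 1 Mb, 7 at 2 to 5 Mb and 9 at 5 to 10 Mb. At 10 to 20 Mb they were 37 (22.8% of 162 genes), further away 78 (10.4%) and on other chromosomes 1416 (10.2%). All other alternatives kept the median of the 9 genes between -0.17 and -0.14. The cause of these shifts was not tested. No paired analysis was possible because the labels give no replicate numbers shared between groups. Depth limits Six5 most, with 8 counts in its lowest library.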
